A study of Schizosaccharomyces pombe with 5 samples.

Results

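Meiotic mRNA elimination in the fission yeast Schizosaccharomyces pombe is described here through 8 genes. With earlier results of these data known, the genes were chosen by name for their known roles. They are the elimination factors mmi1 and red1, the meiotic regulators mei2 and sme2, and the targets mei4, ssm4, rec8 and spo5. They make up 8 of the 6727 genes counted, and 8 of the 6376 genes tested after low counts were removed.

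In vegetative cells, a set of meiotic genes is transcribed too early, and the transcripts are removed in the nucleus. The YTH-family protein Mmi1 binds a short repeated hexamer in these RNAs and, with the zinc-finger protein Red1, hands them to the nuclear exosome. On entry into meiosis, the RNA-binding protein Mei2 and the long noncoding RNA sme2, also called meiRNA, hold Mmi1 in a nuclear dot, and the meiotic mRNAs accumulate.

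The libraries came from RNA immunoprecipitation of Slr1p, a homolog of the animal RNA-binding protein LARP1, followed by sequencing. All groups were wild-type (WT) cells of strain yAS99, grown at 32 °C in YES, a rich medium, and treated with formaldehyde to cross-link RNA to protein, so no group was labelled as meiotic. There were 2 libraries of total RNA input extracted with hot phenol, 2 of RNA precipitated with the Slr1p antibody AB2756, and 1 of RNA precipitated with non-immune rabbit IgG. The labels call the 2 libraries of each replicated group biological replicates, and do not say whether they came from separate cultures.

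Gene counts totalled between 62802923 and 65859940 over the 4 replicated libraries, while the single IgG library totalled 12882920. It also stood apart in content. The mitochondrially encoded genes cob, cox1, cox2 and urf_a, the 4 summed here, took 4.73% of its counts (95% Wilson interval 4.72 to 4.74%). They took 0.000937 to 0.00154% of the other libraries. It held more of long transcripts and less of short ones: with genes put into 5 length bins, the median log2 fold change of IgG against input was -0.65 in the bin of 75 to 902 bases and 0.97 in that of 2586 to 15002 bases. Every comparison with IgG below rests on this library, and its own spread was taken to be that of the replicated groups.

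The hexamer bound by Mmi1 is UNAAAC in RNA, written TNAAAC in the DNA letters used here, where N is any base. Stretches with several hexamers from sme2 and the 4 targets are shown because they are the feature for which these RNAs are known as elimination substrates. They were read from the RefSeq annotated transcripts of assembly ASM294v3, 5′ to 3′ on the transcript strand, with hexamers in capitals. The sme2 stretch lies at chrII:339347-339445 on the minus strand, in the noncoding RNA. The mei4 stretch lies at chrII:1473878-1473970 on the plus strand and is coding. The rec8 stretch, chrII:2570136-2570170 on the plus strand, is coding, as is the ssm4 stretch, chrI:4535172-4535269 on the minus strand. The spo5 stretch lies at chrII:2538103-2538125 on the plus strand, in the 3′ UTR. The stretches of sme2, mei4 and ssm4 hold as many hexamers as any 100 bases of those RNAs, whereas the spo5 stretch is a piece of a larger cluster in its 3′ UTR and the rec8 stretch lies outside the densest cluster of rec8, which runs into the 3′ UTR.
sme2: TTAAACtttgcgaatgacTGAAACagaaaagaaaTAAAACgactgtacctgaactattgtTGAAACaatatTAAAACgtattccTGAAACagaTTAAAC
mei4: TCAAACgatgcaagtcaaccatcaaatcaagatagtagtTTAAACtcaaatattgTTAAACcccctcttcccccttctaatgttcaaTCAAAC
rec8: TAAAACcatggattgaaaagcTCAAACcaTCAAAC
spo5: TCAAACTTAAACcaacaTAAAAC
ssm4: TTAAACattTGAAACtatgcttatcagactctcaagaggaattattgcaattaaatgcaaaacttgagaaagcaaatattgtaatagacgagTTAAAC

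The sme2 stretch held 7 hexamers in 99 bases, the mei4 stretch 4 in 93, and the ssm4 stretch 3 in 98. The rec8 stretch held 3 in 35 bases and the spo5 stretch 3 in 23. The densest clusters of these RNAs, printed only in part for spo5 and not for rec8, held 6 hexamers between bases 1778 and 1873 of spo5 and 5 between bases 1657 and 1741 of rec8. The sme2 stretch is at bases 1463 to 1561 of the 1562-base long form of the RNA and is absent from the annotated 509-base short form. Which form the authors counted is not given in the sources used here.

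Over whole transcripts, the 4 targets and sme2 were rich in the hexamer. Its density was 8.03 per kb in rec8 (15 hexamers), 6.99 in spo5 (14), 6.30 in ssm4 (13), 5.76 in sme2 (9) and 4.96 in mei4 (11). These 5 genes stood at percentiles 97.3 to 99.6 of the 6589 annotated genes, whose median was 1.69 per kb and of which 87.8% held at least 1 hexamer. The factor red1 also held 10 hexamers, 4.09 per kb, at percentile 94.2. In mmi1 there were 8, at 2.91 per kb and percentile 83.7. The transcript of mei2 held 2, at 0.495 per kb and percentile 13.6.

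On the antisense strand the counts were lower for every member except mei2, which held 9 there: 10 in mei4, 6 in rec8, 5 in ssm4, 4 in spo5, 3 in red1 and 1 each in sme2 and mmi1. Within any 100 bases, the largest number of sense hexamers was 7 in sme2, 6 in spo5 and 5 in rec8, and no gene outside the 8 held 5 or more. In mei4 the largest number was 4, in ssm4 and red1 3, in mmi1 2 and in mei2 1. In ssm4 all 13 hexamers were coding, in mei4 10 of 11, and in rec8 11 of 15, with 3 in the 3′ UTR and 1 across the end of the coding sequence. The coding sequence of ssm4 spans bases 51 to 2063 of its 2063-base transcript. With no 3′ UTR annotated for ssm4, none of its hexamers could be counted there. In spo5 7 of 14 lay in the 3′ UTR, 6 in the coding sequence and 1 in the 5′ UTR.

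**Figure D1:**
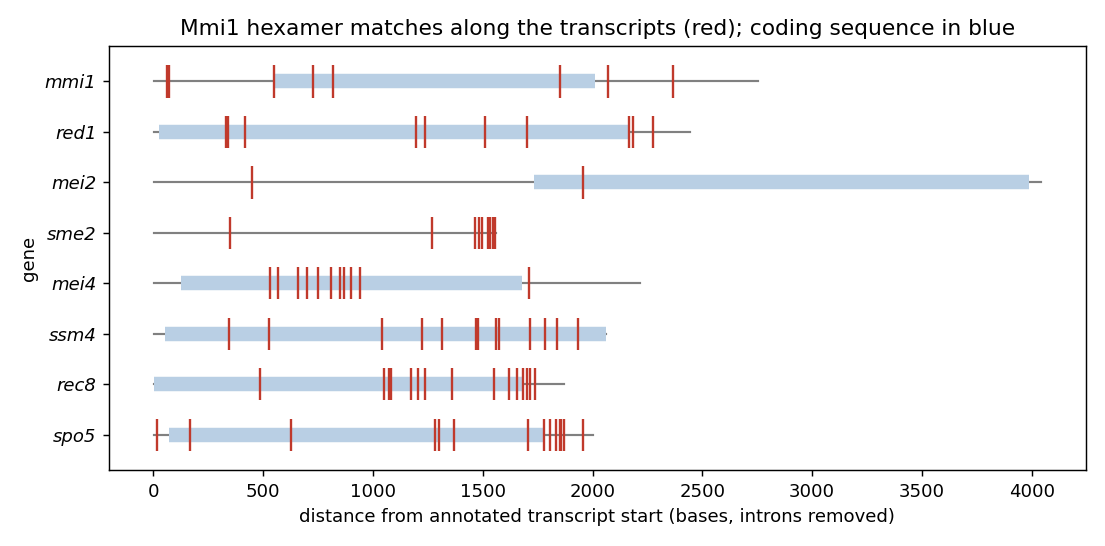
Positions of the TNAAAC hexamer along the annotated transcripts of the 8 genes, in bases from the transcript start with introns removed; red marks are hexamers and blue bars the coding sequence. The 7 hexamers near the 3′ end of sme2 form the densest group, and the 2 hexamers of mei2 the sparsest set.

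As lengths differ, levels between the genes were compared as TMM-scaled CPM, a count divided by its library's scaled total, per kb of transcript in input. In these vegetative cells the factors led: mmi1 stood at 13.2 ± 0.481 CPM per kb (SD, n = 2) and red1 at 8.02 ± 1.26, against a median of 22.6 over 5009 protein-coding genes. They were followed by mei2 at 2.52 ± 0.603, mei4 at 1.49 ± 0.277, ssm4 at 1.45 ± 0.208 and sme2 at 1.10 ± 0.0955. The lowest were rec8 at 0.405 ± 0.0541 and spo5 at 0.247 ± 0.0076. Among neighbours in this order, mei4 and ssm4 did not differ beyond their spread, and the input values of ssm4 and sme2 did not overlap. The level of sme2 would be 3.37 CPM per kb if its counts came from the short form alone. As percentiles of protein-coding genes, the levels ran from 33.5 for mmi1 through 6.9 for mei2 and 4.9 for mei4 to 2.0 for rec8 and 1.2 for spo5.

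The question put by the immunoprecipitation was which RNAs associate with Slr1p. None of the 8 transcripts was higher in the Slr1p immunoprecipitation than in IgG, and 7 were lower (edgeR quasi-likelihood test, adjusted p under 0.05), from 2.04-fold lower for mei2 to 4.49-fold lower for mmi1. At an unadjusted p under 0.05, and with DESeq2, the number higher than IgG was also 0. Over all genes tested, 66.3% were called, 32.3% lower and 34.0% higher. The median log2 fold change was -1.48 over the 8 genes and 0.07 over all genes tested. Against input the 8 genes were divided: ssm4 and mei2 were higher, mei4, sme2 and mmi1 were lower, and red1, rec8 and spo5 did not pass the test. That is 2 called higher, where 35.0% of all genes were, and 3 called lower, where 34.2% were, or 5 of 8 in either direction, against 69.2%. Their median log2 fold change against input was -0.37, and that of all genes 0.04. Both comparisons use the same Slr1p libraries.

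**Figure D2:**
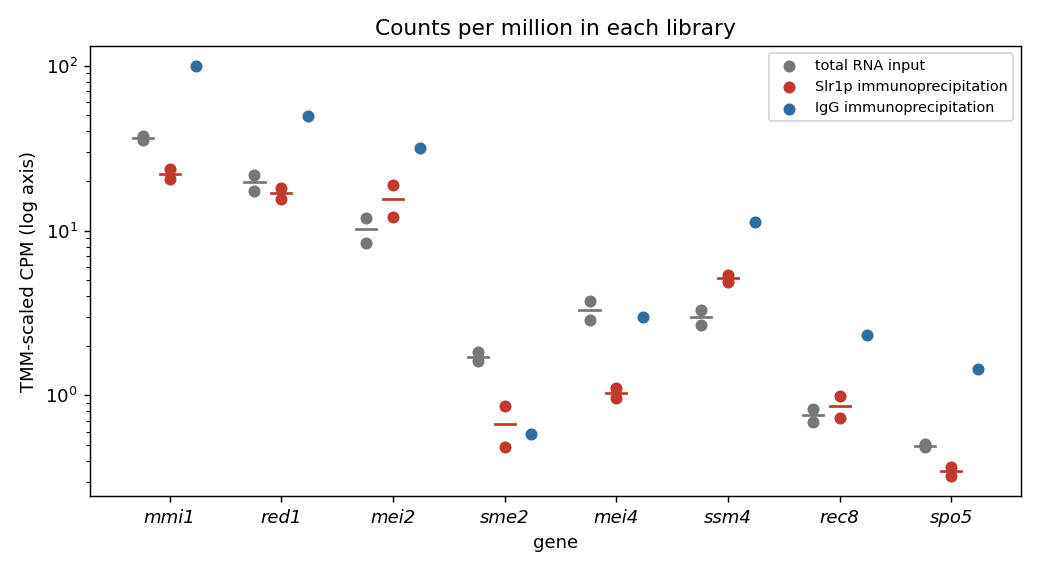
TMM-scaled CPM of the 8 genes in each of the 5 libraries, on a log axis, with 1 point per library and a line at the mean of each replicated group. The IgG point lies above both Slr1p points for every gene except sme2, whose IgG value of 0.581 CPM lies between its Slr1p values of 0.488 and 0.862 CPM.

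The elimination factors came first in abundance. The mRNA of mmi1 (SPCC736.12c, chrIII:337088-340112, minus strand, 5 exons), which encodes the hexamer-binding protein, had 35.4 and 37.3 CPM in the input libraries, 23.6 and 20.6 CPM in the Slr1p libraries and 99.2 CPM in IgG (95% exact counting interval 94.0 to 105.0). Both Slr1p libraries were below both input libraries, and the IgG library was above all 4. Against input the Slr1p level was 1.65-fold lower (log2 fold change -0.72, SE 0.12, edgeR adjusted p = 8.32e-05). Against IgG it was 4.49-fold lower (log2 fold change -2.17, SE 0.15, adjusted p = 5.28e-09). Of the 8 genes, mmi1 and mei4 were the 2 called lower with Slr1p than in input and also than in IgG. The share of all genes called lower than both was not computed.

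The mRNA of red1 (SPAC1006.03c, chrI:5070931-5073898, minus strand, 4 exons), which encodes the scaffold linking Mmi1 to the exosome, had 17.5 and 21.8 CPM in input, 18.2 and 15.5 CPM with Slr1p and 49.8 CPM in IgG (46.2 to 53.7). The input and Slr1p values overlapped, and IgG was above both groups. It did not pass the test against input (log2 fold change -0.22, SE 0.14, adjusted p = 0.184). Without input replicate 1, that comparison was called, at -0.378 (adjusted p = 0.00214). Against IgG red1 was 2.96-fold lower (log2 fold change -1.56, SE 0.17, adjusted p = 1.49e-06). Its 3′ part overlaps the opposite-strand gene asa1 by 68 bases, and asa1 had a log2 fold change against IgG of 0.83 (adjusted p = 0.000453), in the other direction. Against input asa1 was called lower, at -0.29 (edgeR adjusted p = 0.0442), the sign that red1 had. That call held in 3 of 11 alternatives.

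The regulators that act against Mmi1 in meiosis were called in opposite directions against input. The mRNA of mei2 (SPAC27D7.03c, chrI:4510983-4515025, minus strand, 1 exon), which encodes the RNA-binding protein that starts meiosis, had 11.9 and 8.46 CPM in input, 18.9 and 12.1 CPM with Slr1p and 31.7 CPM in IgG (28.8 to 34.8). The lower Slr1p value was just above the higher input value, and IgG was above both groups. Against input it was 1.52-fold higher (log2 fold change 0.61, SE 0.20, adjusted p = 0.0132). This call rested on Slr1p replicate 1, without which the log2 fold change was 0.22 (adjusted p = 0.442). Against IgG it was 2.04-fold lower (log2 fold change -1.03, SE 0.25, adjusted p = 0.00169). At 4043 bases mei2 is the longest of the 8 transcripts, and after a trend with length and GC content was taken out of every library the log2 fold change against IgG was 0.088 (adjusted p = 0.792).

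The noncoding RNA sme2 (SPNCRNA.103, chrII:339346-340907, minus strand, long form) was the only one of the 8 not called lower than IgG. It had 1.82 and 1.61 CPM in input, 0.488 and 0.862 CPM with Slr1p and 0.581 CPM in IgG (0.251 to 1.14). The IgG value came from 8 counts, and the Slr1p values from 32 and 53. Both immunoprecipitations were below both input libraries, and the IgG value lay between those of the Slr1p libraries. Against input the Slr1p level was 2.55-fold lower (log2 fold change -1.35, SE 0.29, adjusted p = 0.000637). Against IgG the log2 fold change was 0.21 (SE 0.63, adjusted p = 0.781), and a difference was not detectable at this depth. The gene mrpl8 on the same strand overlaps it by 212 bases and the noncoding gene SPNCRNA.1342 on the opposite strand by 542 bases. Against IgG both were called higher with Slr1p, mrpl8 at 0.75 and SPNCRNA.1342 at 0.98. Without the length and GC trend they were at -0.018 and 0.158 and not called. The call against IgG held in 8 of 9 alternatives for mrpl8 and in 5 of 9 for SPNCRNA.1342. Against input mrpl8 was higher with Slr1p, at 0.44 (adjusted p = 0.00737; 0.348 and 0.165 without Slr1p replicate 1), and SPNCRNA.1342 had -0.36 (adjusted p = 0.132). SPNCRNA.1342 was called lower than input without the length and GC trend, at -1.074 (adjusted p = 6.87e-05), and without input replicate 2, at -0.581 (0.0141), the direction also called for sme2.

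Among the targets, mei4 and ssm4 had like levels in input and moved in opposite directions against it. The mRNA of mei4 (SPBC32H8.11, chrII:1473068-1475285, plus strand, 1 exon), which encodes the forkhead transcription factor of the middle meiotic genes, had 2.87 and 3.74 CPM in input, 0.960 and 1.11 CPM with Slr1p and 2.98 CPM in IgG (2.14 to 4.04). Both Slr1p libraries were below the other 3, and the IgG value fell between the input values. The Slr1p level was 3.20-fold lower than input (log2 fold change -1.68, SE 0.24, adjusted p = 1.11e-05) and 2.88-fold lower than IgG (log2 fold change -1.53, SE 0.36, adjusted p = 0.00142). The kinase gene cdk9 on the same strand overlaps mei4 by 115 bases and did not pass the test against input (-0.08, adjusted p = 0.573) or IgG (-0.35, adjusted p = 0.0573). It was called lower than IgG after thinning to the IgG total, at -0.410 (adjusted p = 0.0417), and without input replicate 1 or 2, at -0.375 (0.000487) and -0.354 (0.000698).

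The mRNA of ssm4 (SPAC27D7.13c, chrI:4534674-4536736, minus strand, 1 exon), which encodes a microtubule-binding dynactin subunit of horsetail nuclear movement, had 2.69 and 3.30 CPM in input, 5.37 and 4.88 CPM with Slr1p and 11.3 CPM in IgG (9.62 to 13.3). The 3 groups did not overlap, with input lowest and IgG highest. Against input it was 1.71-fold higher (log2 fold change 0.77, SE 0.19, adjusted p = 0.00166). Against IgG it was 2.21-fold lower (log2 fold change -1.14, SE 0.23, adjusted p = 0.000482).

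The mRNA of rec8 (SPBC29A10.14, chrII:2568938-2570993, plus strand, 5 exons), which encodes the kleisin subunit of meiotic cohesin, had 0.685 and 0.828 CPM in input, 0.991 and 0.732 CPM with Slr1p and 2.32 CPM in IgG (1.59 to 3.28). Input and Slr1p overlapped, and the comparison did not pass the test (log2 fold change 0.19, SE 0.29, adjusted p = 0.577). Against IgG rec8 was 2.69-fold lower (log2 fold change -1.43, SE 0.40, adjusted p = 0.00511).

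The mRNA of spo5 (SPBC29A10.02, chrII:2536150-2538254, plus strand, 3 exons), which encodes a meiotic RNA-binding protein, was the least abundant, with 0.484 and 0.506 CPM in input, 0.366 and 0.325 CPM with Slr1p and 1.45 CPM in IgG (0.887 to 2.24). These values came from 20 to 33 counts per library. Both Slr1p libraries were below both input libraries, but the difference did not pass the test (log2 fold change -0.51, SE 0.34, adjusted p = 0.195). Against IgG spo5 was 4.18-fold lower (log2 fold change -2.06, SE 0.48, adjusted p = 0.00153). The opposite-strand gene pcf1 overlaps its 3′ part by 127 bases and was higher with Slr1p than in input, at 0.85 (adjusted p = 2.56e-05). Against IgG pcf1 was called lower, at -0.46, the direction also called for spo5, and that call held in 7 of 9 alternatives. In IgG against input pcf1 was at 1.31.

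**Figure D3:**
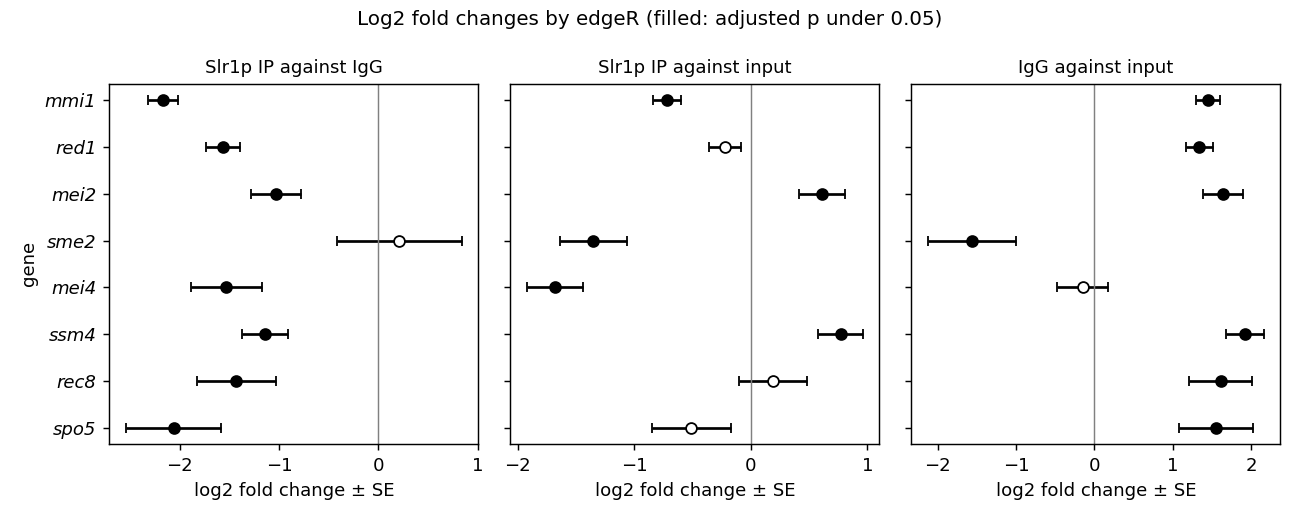
Log2 fold changes of the 8 genes in the 3 comparisons, with bars of 1 SE from the edgeR fit and filled points for adjusted p under 0.05. Against IgG 7 of the 8 lie below 0, and against input the genes run from -1.68 for mei4 to 0.77 for ssm4.

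The IgG immunoprecipitation itself held more of most of these RNAs than input did. Of the 8, 6 were higher in IgG than in input, where 34.1% of all genes were, and 1 was lower, where 36.5% were, together 7 of 8 against 70.6%. The median log2 fold change was 1.5, and that of all genes -0.06. The largest was that of ssm4, at 1.92 (SE 0.24, adjusted p = 2.78e-06), a 3.78-fold higher level. The values were 1.64 for mei2 (adjusted p = 2.18e-05), 1.61 for rec8 (0.00209), 1.55 for spo5 (0.0076), 1.45 for mmi1 (2.8e-07) and 1.34 for red1 (4.84e-06). The RNA of sme2 was 2.94-fold lower in IgG than in input (log2 fold change -1.56, SE 0.56, adjusted p = 0.0214). That of mei4 did not pass the test (-0.15, SE 0.33, adjusted p = 0.689). This comparison shares its libraries with the other comparisons, so the values are not independent of those given above.

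Transcript length moved with the comparison against IgG. The median log2 fold change of Slr1p against IgG was 1.01 in the bin of the shortest genes and -1.01 in that of the longest, which holds mmi1 and mei2. In the bin of 1842 to 2586 bases, the median was -0.31; red1, mei4, ssm4, rec8 and spo5 lie there, and all 5 were below it. The bin of 1338 to 1842 bases, with sme2, had a median of 0.22. After the length and GC trend was taken out, 26.2% of all genes tested were called lower than IgG, and 6 of the 7 genes stayed lower: spo5 at -1.93, mmi1 at -1.59, rec8 at -1.41, mei4 at -1.26, red1 at -1.11 and ssm4 at -1.08. The bin medians of Slr1p against input lay between -0.17 and 0.36.

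**Figure D4:**
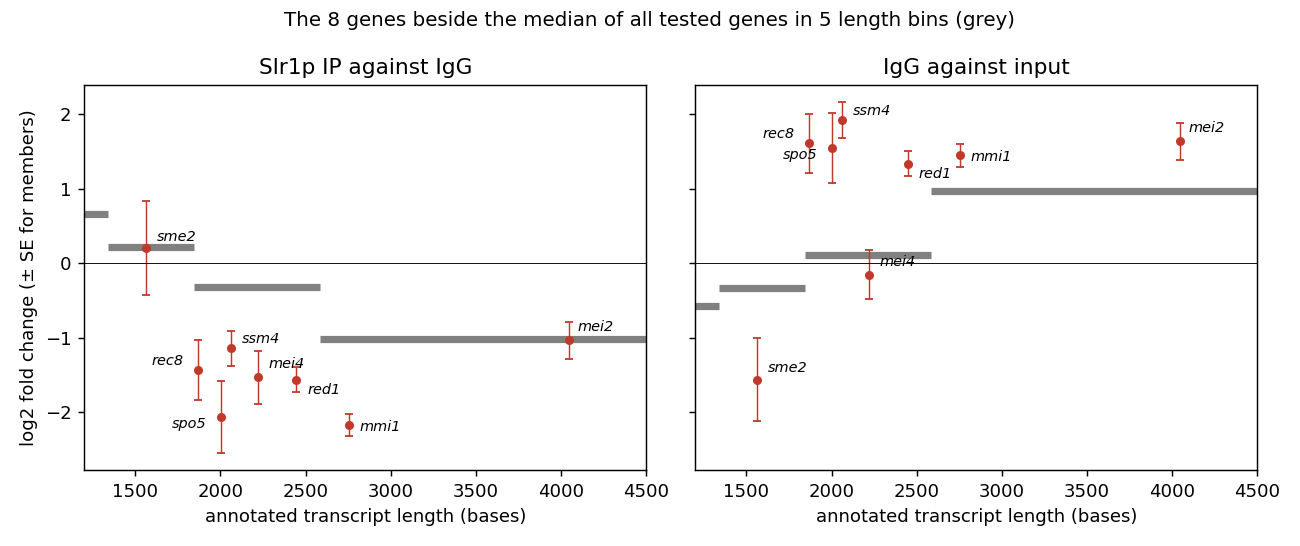
Log2 fold changes of Slr1p against IgG and of IgG against input for the 8 genes by transcript length in bases, with bars of 1 SE and, in grey, the median of all tested genes in each length bin. The median of Slr1p against IgG falls from 0.22 in the bin of sme2 to -1.01 in that of the longest genes, and 7 of the 8 genes lie below 0 there.

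The annotated 5′ ends were read because LARP1 in animals is known for binding mRNAs that begin with a run of pyrimidines. The 7 mRNAs include rec8, which has no annotated 5′ UTR, so a run at its 5′ end could not be assessed. Among the 7 mRNAs, 4 had a run of at least 5 pyrimidines starting within the first 3 bases, as did 9.3% of 5106 protein-coding genes (475 genes). The first 20 bases of these transcripts in ASM294v3 are shown with the run in capitals: mmi1 at chrIII:340093-340112 on the minus strand, mei4 at chrII:1473068-1473087 on the plus strand, ssm4 at chrI:4536717-4536736 on the minus strand and spo5 at chrII:2536150-2536169 on the plus strand.
mmi1: gCCTTCTTCCagaaatccaa
mei4: agCCCTCTCCCacctaccta
ssm4: agTTTCTaaccattttatca
spo5: aCCTTTaacatatattcaaa

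The runs of mmi1 and mei4 were 9 bases long, and those 2 mRNAs were lower with Slr1p than in both controls. Against input, ssm4, which also had a run, was higher, and spo5 did not pass the test. Whether the length of a run went with the change was not tested. The runs of ssm4 and spo5 were 5 bases long, and none of the 4 runs began at base 1. A run of at least 5 from base 1 was annotated in 20 of 5106 protein-coding genes (0.39%). The longest run starting within the first 3 bases was 4 in mei2, 2 in red1 and 1 in rec8. The value of rec8 was read from coding sequence, which begins at base 1 of its annotated transcript. The 5106 are all matched protein-coding genes, so any others annotated without a 5′ UTR were also kept in. Annotated starts are 1 per gene and may not be the starts used in these cells.

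Besides the 8, 21 genes held 4 hexamers in some 100 bases, and 19 of them were tested. Of these, 3 were higher and 7 lower than IgG (median log2 fold change 0.30), and 4 were higher and 5 lower than input (median -0.12). Shares of all genes were 34.0% higher and 32.3% lower than IgG, and 35.0% higher and 34.2% lower than input. Among them, picked here after their values were seen, the meiotic coiled-coil gene mcp3 had a log2 fold change against IgG of -2.07 (adjusted p = 0.000118) and against input of -0.16 (adjusted p = 0.624). The 3 higher than IgG were the noncoding SPNCRNA.1603 at 2.83 (edgeR adjusted p = 3.11e-06), rpl3202 at 1.89 (2.23e-05) and sde2 at 0.44 (0.0482). With at least 3 hexamers in 100 bases, 236 other genes were tested, of which 59 were higher and 95 lower than IgG (median -0.17), and 92 were higher and 74 lower than input (median 0.07).

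The other genes of the pathway were taken by their known roles, also with earlier results of these data known. The counts of each list below stand beside 34.0% higher and 32.3% lower than IgG, and 35.0% higher and 34.2% lower than input, over all genes tested. The share of all genes called in 1 direction against both controls was not computed. Counts against both controls therefore stand without such a share. The shares over all genes also moved with the setting. Without the length and GC trend, 23.2% of all genes were higher and 26.2% lower than IgG. With library totals alone, 26.7% were higher and 32.8% lower than IgG. With a Slr1p library left out, fewer of all genes were called against either control, and with an input library left out, more were. Of 13 other Mmi1 partners and RNA elimination factors, 2 were higher and 5 lower than IgG (median log2 fold change -0.09), and 6 were higher and 5 lower than input (median 0.00). The mRNA of erh1, which encodes the small partner protein of Mmi1, was higher than both controls, at 55.3 ± 0.438 CPM (SD, n = 2) with Slr1p, 31.5 ± 1.98 in input and 20.8 in IgG. Its log2 fold changes were 1.41 against IgG (adjusted p = 2.68e-06) and 0.81 against input (adjusted p = 1.74e-05). The termination factor mRNAs rhn1 and pcf11 were lower than both: rhn1 by -0.80 (adjusted p = 0.00296) and -1.16 (6.46e-06), and pcf11 by -0.95 (5.4e-05) and -0.44 (0.00505). For pcf11, the value against IgG was 0.031 without the length and GC trend (adjusted p = 0.878), and that against input -0.387 without Slr1p replicate 2 (adjusted p = 0.135). The counts against IgG ran from 1 to 4 higher and from 2 to 6 lower over the settings tried, and 3 were lower than input without Slr1p replicate 2.

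Of 13 exosome core and cofactor genes, which encode the machine that degrades the targets, 8 were higher and 2 lower than IgG (median 0.57), and 8 were higher and 2 lower than input (median 0.37). The 2 lower than IgG were dis3, at -1.07 (edgeR adjusted p = 1.01e-05), and rrp6, at -0.85 (0.000547). Against input both were higher, at 0.41 (0.00695) and 0.91 (4.33e-05). The subunit gene rrp6 is in this list and in that of Mmi1 partners. The 5 higher than both controls included mtr3 (1.02 against IgG, 0.32 against input), csl4 (0.79 and 0.69), rrp4 (0.72 and 0.50) and rrp41 (0.57 and 0.94), all core subunits, with adjusted p from 9.64e-06 to 0.0197. Without the length and GC trend, the values against IgG were 0.005 for csl4, 0.215 for rrp4 and -0.15 for rrp41, none of them called, and 3 of the 13 genes were higher. Against input, 4 were higher without Slr1p replicate 1 and 5 without Slr1p replicate 2, and 1 was lower without either; the call of mtr3 was lost without either library, at 0.308 and 0.311, and that of rrp4 without Slr1p replicate 1, at 0.464. Without Slr1p replicate 1 the call of rrp41 against IgG was lost too, at 0.493 (adjusted p = 0.0965). With library totals alone, 5 genes were higher than IgG, rrp41 was at 0.456 against IgG (adjusted p = 0.109) and mtr3 at 0.321 against input (0.137). After thinning to the IgG total mtr3 was at 0.221 against input (adjusted p = 0.115).

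Of 8 CCR4-NOT genes, which encode the cytoplasmic deadenylase complex that also binds Mmi1, 3 were higher and 3 lower than IgG (median -0.03), and 1 was higher and 3 lower than input (median 0.22). None was called in 1 direction against both. Leaving out a library moved the number higher than input from 0 without Slr1p replicate 1 to 5 without input replicate 2, and the number higher than IgG to 1 without Slr1p replicate 1. That number was 0 with library totals alone and 1 without the length and GC trend. With 3 of 8 genes each way, the list was close to the shares of all genes against IgG. The scaffold mRNA not1 had -2.80 against IgG (adjusted p = 2.8e-10), with 486.8 CPM in IgG and 70.1 ± 3.06 CPM with Slr1p, and 0.23 against input (adjusted p = 0.115). The deadenylase mRNA ccr4 had -0.80 against IgG (adjusted p = 0.000111) and 0.22 against input (adjusted p = 0.0974).

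Genes that control the switch to meiosis were mostly lower than IgG and higher than input, the 2 directions also called for mei2. Of 10, 8 were tested, of which 1 was higher and 7 lower than IgG (median -0.84), and 6 were higher and 1 lower than input (median 0.49). The mRNA of rad24, a 14-3-3 protein that binds Mei2, was higher than both controls, at 1.23 (adjusted p = 0.000163) and 0.56 (0.00823). The call of rad24 against input was lost without either Slr1p library, at 0.638 (adjusted p = 0.0766) and 0.446 (0.231). That of pka1, the catalytic subunit of protein kinase A, was lower than both, at -0.59 (0.00284) and -1.03 (1.42e-06); without Slr1p replicate 1 its value against IgG was -0.553 (adjusted p = 0.0611). Without either Slr1p library 3 of the 8 genes were higher than input, 2 were lower than input without input replicate 2, and without the length and GC trend 3 were lower than IgG.

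Of 12 other cohesin genes, the complex that Rec8 joins in meiosis, 0 were higher and 9 lower than IgG (median -1.29, edgeR), and 4 were higher and 2 lower than input (median 0.01). The mRNA of rad21, the mitotic kleisin that Rec8 replaces, was lower than both controls, at -1.76 against IgG (adjusted p = 4.59e-08) and -1.29 against input (1.44e-07), and psc3, a cohesin subunit, was at -1.29 (3.65e-06) and -0.50 (0.00248). The number higher than IgG was also 0 at an unadjusted p under 0.05 and with DESeq2. Without the length and GC trend psc3 was at -0.246 against IgG (adjusted p = 0.204), and without Slr1p replicate 2 at -0.462 against input (0.0788), which left 1 gene lower than input. With either input library left out, 1 cohesin gene was higher than IgG.

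Of 9 other horsetail movement genes, the process in which Ssm4 acts, 1 was higher and 4 lower than IgG (median 0.13), and 4 were higher and 3 lower than input (median 0.32). The spindle pole body gene sad1 was lower than both, at -1.73 (adjusted p = 1.83e-06) and -2.32 (4.59e-09), with 5.85 ± 1.15 CPM with Slr1p against 29.2 ± 0.821 CPM in input. Without the length and GC trend 1 of the 9 genes was lower than IgG, and 1 was higher than input without Slr1p replicate 1 and 2 without Slr1p replicate 2.

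Of 23 other meiotic genes, 3 were higher and 11 lower than IgG (median -0.60), and 8 were higher and 4 lower than input (median 0.12). With mfr1 set to the bound that 3 counts in IgG allow and spo4 left out, both having 0 counts there, the median against IgG was -0.74. The gene rec11, at -2.24 against IgG, is in this list and in that of cohesin genes. The nuclear fusion gene tht2 was higher than both controls, with 3.77 ± 0.0949 CPM with Slr1p, 1.07 ± 0.0709 in input and 1.31 in IgG (log2 fold changes 1.53, adjusted p = 0.00183, and 1.82, adjusted p = 2.28e-06). The recombination gene mcp7 was lower than both (-2.69, adjusted p = 1.9e-06, and -1.65, adjusted p = 1.65e-05), as were mug8 (-1.05 and -0.82) and mug9 (-2.32 and -0.70). The call of mug9 against input (adjusted p = 0.0483) was lost without input replicate 2, at -0.488 (adjusted p = 0.239), and without either Slr1p library, at -0.629 (0.187) and -0.792 (0.0939). Without the length and GC trend tht2 was at 0.682 against IgG (adjusted p = 0.146). With either input library left out 5 of the 23 genes were higher than IgG, and 2 were lower than input without Slr1p replicate 1.

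**Figure D5:**
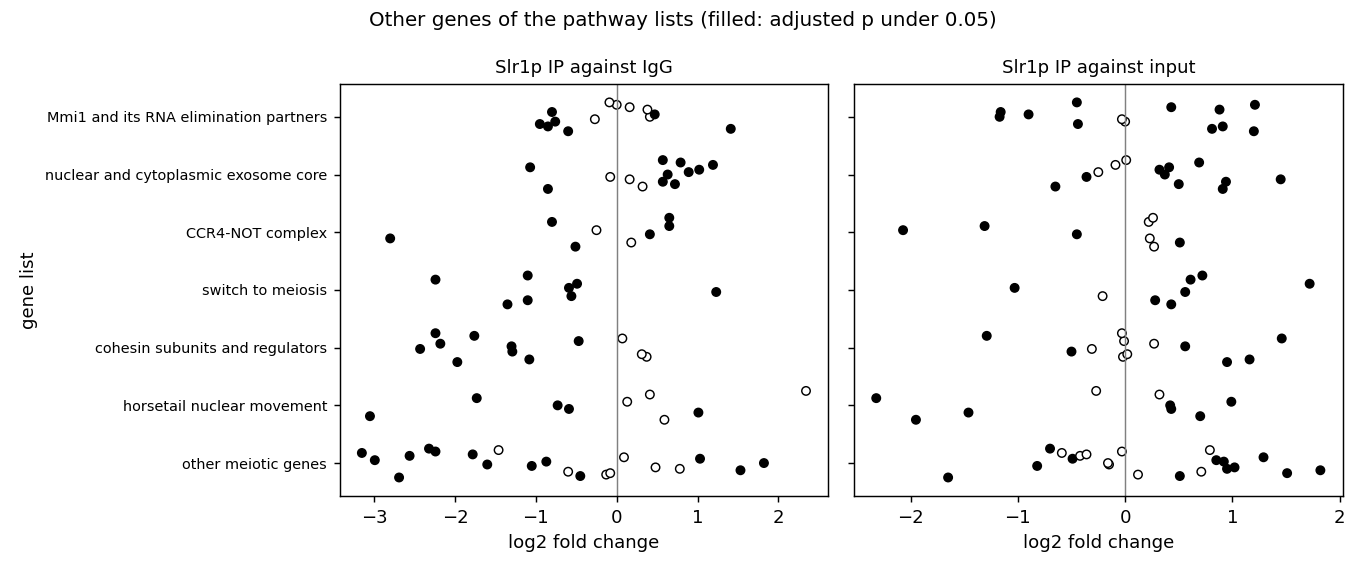
Log2 fold change of Slr1p against IgG and against input for the tested genes of the 7 lists other than the 8 genes, filled where adjusted p is under 0.05, with spo4 and mfr1, which had 0 counts in IgG, left out. The cohesin genes have a median of -1.29 against IgG and 0.01 against input, and the exosome genes medians of 0.57 and 0.37.

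Genes with the most similar profile over the 5 libraries were found by Euclidean distance of log2(CPM + 0.05), centred per gene. The closest to spo5 was dnf2, a phospholipid-transporting ATPase gene, at 0.049, and the closest to ssm4 were osh3, a sterol transfer protein gene, at 0.083 and rqc2, a ribosome quality control gene, at 0.099. The closest to red1 was sfc4, a TFIIIC subunit gene, at 0.106, to mmi1 the GTPase-activating protein gene SPAC18B11.11, at 0.123, and to rec8 SPAPB1A11.03, a lactate dehydrogenase gene, at 0.176. The closest to mei4 were mik1, an inhibitory kinase gene of the cell cycle, at 0.234 and kms2 at 0.262. Those closest to mei2 and sme2 were noncoding RNAs, SPNCRNA.505 at 0.332 and SPNCRNA.1349 at 0.352. The median distance of all genes to a member lay between 1.79 and 2.17. The distance takes no account of counting error. As spo5 had 20 to 33 counts per library, how near its closest gene lies is uncertain.

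Strand could not be settled for these genes. The annotation places 13 noncoding RNAs on the opposite strand of 7 of the 8 genes, among them 1 that covers 90.4% of rec8, and only SPNCRNA.1342 over sme2 was counted in the files. Whether reads from these RNAs entered the counts of the 8 genes was not tested.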

How the data were processed

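Values were raw read counts per gene as deposited by the authors, 1 library per file, from a directional kit read from both ends for 50 bases, per the labels. The submitters' processing notes list, with no role or order, STAR 2.6.0c, HTSeq 0.6.1p2, Trim Galore, FastQC 0.11.5 and bcl2fastq 2.20. The build, gene models, strand option and handling of multiply mapped reads were not given in the sources used here. RefSeq's annotation of ASM294v3 supplied names, lengths, positions and sequences, and 6589 of the 6727 identifiers matched it and 138 did not.

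The test was the quasi-likelihood test of edgeR 4.0.16 in R 4.3.3, on TMM-scaled counts, fitted to all 5 libraries with a mean for each group. The default filter by group removed 351 genes. Degrees of freedom were 2 residual and 13.5 prior, and the common biological coefficient of variation was 0.101. IgG, with 1 library, was taken to vary like the others. Benjamini-Hochberg adjustment ran over the 6376 genes of a comparison, and genes with an adjusted p under 0.05 were called. They measure only the spread between these libraries, which may be technical. Neither replicate pair agreed within sampling noise (chi-square per degree of freedom 194 over 6362 genes for input and 44.4 over 6377 for Slr1p). Intervals cover counting error only. The fit was tested on simulated data in which all 5 libraries had the same spread and no length trend. That test therefore cannot tell how the IgG library varied.

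From each list, the genes named were up to 4 called in the same direction against both controls, or else the 2 with the largest change against IgG; the 2 nearest profiles of a member and genes overlapping a member could also be named. The members and lists were chosen with earlier results of these data known. Alternatives were library totals, DESeq2 1.42.0, no expression filter, thinning to the IgG total, removal of the length and GC trend, leaving out each replicate, a replicate block, and the Slr1p and input libraries alone.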

Additional observations from a re-analysis of the deposited data

How the results depend on the processing

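Over all genes, the counts called stayed within 1.5 times under every alternative tried: 3119 to 4790 for Slr1p against IgG, 3394 to 4840 for Slr1p against input and 4119 to 4888 for IgG against input. Scaling by library totals alone moved the median of all genes from 0.07 to -0.05 (1701 higher and 2091 lower) for Slr1p against IgG. The calls of mmi1, red1, mei4, ssm4, rec8 and spo5 against IgG, and of mmi1, sme2, mei4 and ssm4 against input, held under every alternative. Members called higher against input numbered 1 to 2 when each replicate was left out. With DESeq2, members called lower in IgG than in input fell to 0, as sme2 had an adjusted p of 0.0502. The sign changed, without a call, for sme2 against IgG at -0.317 after thinning, -0.194 without the length and GC trend and -0.265 to 0.538 with a replicate left out. It changed for rec8 against input at -0.569 after thinning and -0.072 to 0.379 with a replicate left out, and for mei4 in IgG against input at 0.111 after thinning and -0.315 to 0.051 with a replicate left out. Without the length and GC trend, the value against IgG was 0.088 for mei2, 0.031 for pcf11, -0.150 for rrp41, -0.018 for mrpl8 and 0.091 for cdk9. Against input it was -0.142 for not1 and 0.071 for cdk9, whose range with a replicate left out was -0.223 to 0.021. In IgG against input, the mei2 call was lost with that trend removed (0.413, adjusted p = 0.149). The cause of these changes was not tested. With the replicate number as a block, 4207 genes were called against input, 4413 without it, and no member's call changed. In that fit, 33.7% of all genes were higher than input, and 3 genes of the switch to meiosis were, in place of 6. There rad24 (0.555, edgeR adjusted p = 0.0502) and mug9 (-0.688, 0.0559) lost their calls. The deviations of replicate 1 from the group mean correlated at -0.0647 between input and Slr1p. That value cannot tell whether libraries with the same number came from the same culture, as the spread between replicates could hide it. The IgG library, with 8 counts of sme2 and 20 of spo5, limits what could be seen for the least abundant RNAs.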
